A study of Mus musculus with 19 samples.

Results

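Monocytes sorted from the central nervous system (CNS) of mice with experimental autoimmune encephalomyelitis (EAE) were compared between mice whose astrocytes carried a hairpin RNA against Xbp1 and mice whose astrocytes carried a scrambled hairpin. The comparison used 4 of the 19 libraries of the series, 2 labelled shXbp1 and 2 labelled shScrmbl, and all 3776 genes of the monocyte table. All 4 came from female wild type C57Bl/6 mice labelled P85. EAE, a T cell driven model of multiple sclerosis, was induced in both groups with 25 µg of the myelin peptide MOG35-55 emulsified in complete Freund's adjuvant (CFA). The mice had received a lentivirus in the brain, pLenti-Gfap-GFP-shScramble in the shScrmbl group and pLenti-Gfap-GFP-shXbp1 in the shXbp1 group, so neither group was left without virus. The hairpin was driven by a Gfap promoter, which is active mainly in astrocytes. Monocytes were therefore not the targeted cells, and any difference between these libraries is a difference in cells that shared the CNS with transduced astrocytes. One CNS was taken per mouse, but the labels do not say whether a library was 1 mouse, and the antibodies of the sort are not given in the sources used here. P-values therefore measure the spread between these 4 libraries, which may be in part technical.

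Inflammatory monocytes leave the blood, enter the CNS during EAE and mature there into macrophages and dendritic-like cells that present antigen, clear myelin debris and release cytokines. Chemokines guide this entry, and the cells' own chemokines in turn attract T cells and further myeloid cells. XBP1 is a transcription factor made active by the endoplasmic reticulum (ER) stress sensor IRE1, and it drives genes for protein folding and ER-associated degradation.

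RNA was measured by 3′ digital gene expression, in which reads come from the 3′ end of each transcript, so values were compared between libraries for a gene and not between genes. The values are normalized signal per gene, and every deposited value could be read as whole counts multiplied by 1 step per library. Total counts were 74340 and 112676 in shScrmbl libraries 1 and 2, and 15654 and 56625 in shXbp1 libraries 1 and 2. A single count was worth a signal of 13.97 and 9.11 in the shScrmbl libraries and of 50.6 and 20.9 in the shXbp1 libraries. The shXbp1 library 1 was the shallowest, with 964 of 3776 genes at 0, against 323 in shXbp1 library 2 and 65 and 5 in the shScrmbl libraries. The pair of shXbp1 libraries also differed more from each other than the shScrmbl pair did. Across the 3775 genes with signal in at least 2 libraries, Pearson's r of log2(signal + 10) was 0.82 for the shScrmbl pair and 0.54 for the shXbp1 pair. It was 0.75 between shScrmbl library 1 and shXbp1 library 2. These correlations are across genes, which are not independent replicates. Because shXbp1 library 1 stood apart, results below are given for each library, and medians of gene lists also without shXbp1 library 1 and without shXbp1 library 2. By edgeR the median over all genes was -0.25 and -0.38 in those fits.

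**Figure D1:**
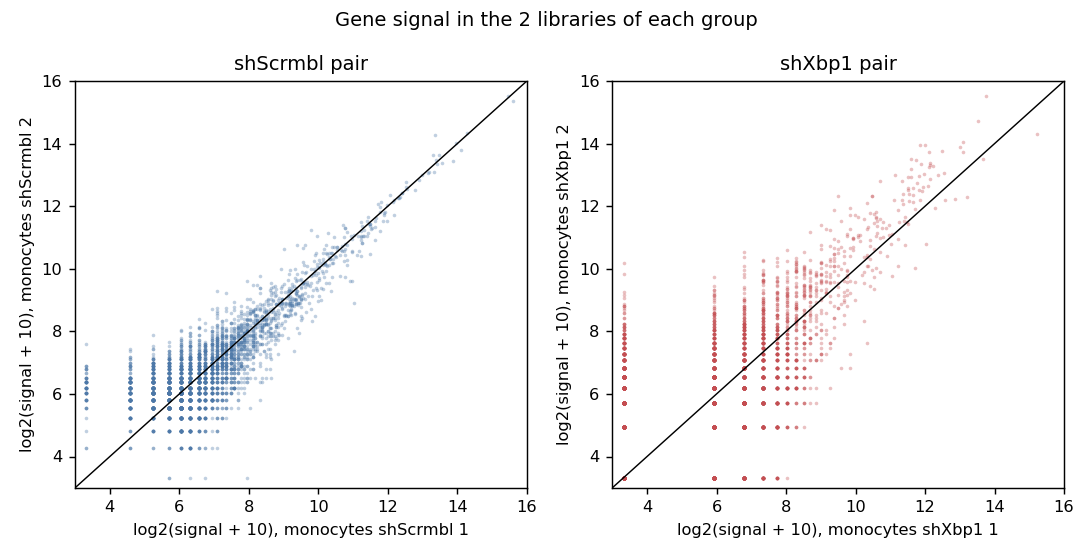
Each point is a gene, plotted by log2(signal + 10) in library 1 (horizontal axis) and library 2 (vertical axis) of the shScrmbl group (left) and the shXbp1 group (right), with the line of equality. The shScrmbl pair lies closer to the line (r = 0.82) than the shXbp1 pair (r = 0.54), where many genes sit at 0 in library 1 along the left edge.

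The sort held the labelled cells together with RNA of other CNS and immune cells. Ly6c2, a surface marker of inflammatory monocytes, had signals of 321 and 182 against 253 and 251, where each such string gives shScrmbl libraries 1 and 2 first and shXbp1 libraries 1 and 2 last. Ccr2, the chemokine receptor that lets monocytes enter inflamed tissue, had 489 and 228 against 101 and 209, lower in both shXbp1 libraries than in either shScrmbl library. Across a list of 32 monocyte and macrophage genes, of which 28 were measured, the summed share of counts was 4.64% and 4.75% against 1.65% and 3.68%. Neither shXbp1 library reached the shScrmbl share, and 6 of the 28 genes were at 0 in shXbp1 library 1. The lysozyme genes Lyz1 and Lyz2, described below, held most of the list's summed signal in every library, 48168 and 48734 against 13094 and 43568. The lower share is therefore largely theirs, and the share of the other genes on the list was not analysed here. Microglial markers took 0.344% and 0.469% against 0.677% and 0.459% over 16 of 20 genes, with the highest share in shXbp1 library 1. T and NK cell markers without Ccl5 took 0.699% and 0.53% against 0.965% and 0.629% over 25 of 38 genes, and none of the 25 was at 0 in both shXbp1 libraries. Ttr, a transport protein made by the choroid plexus, had a signal of 3563 and 4526 against 7483 and 4815. Its signal was higher in both shXbp1 libraries, but as a share of counts the choroid plexus and ependymal list, with 2 of 20 genes measured, overlapped between the groups at 0.361% and 0.470% against 1.02% and 0.438%. The part of these other cells in the results that follow was not tested. In sorted pools of cells, fewer cells of a type and less RNA per cell cannot be told apart.

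**Figure D2:**
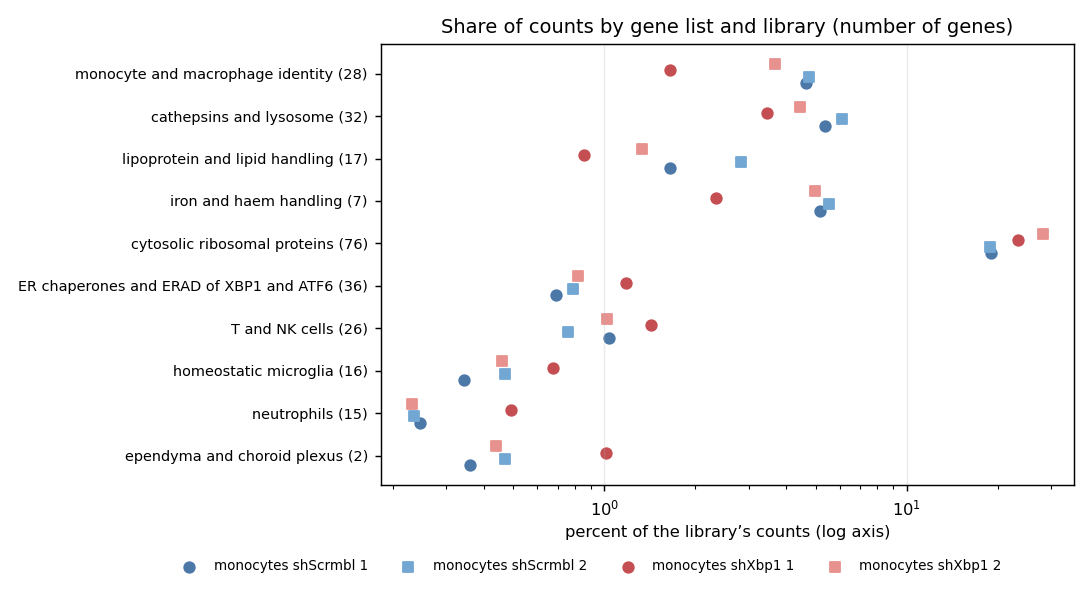
Share of each library's counts taken by 10 gene lists, on a log axis, with 1 symbol per library and the number of genes in parentheses. The monocyte and macrophage share runs from 1.65% in shXbp1 library 1 to 4.75% in shScrmbl library 2, and the lipid list is lower in both shXbp1 libraries.

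No gene passed an adjusted p of 0.05 in limma on log2(signal + 10), where 0 of 3775 genes is 0% called and the smallest adjusted p was 0.702. At an unadjusted limma p under 0.05 there were 25 higher genes (0.662%) and 165 lower genes (4.37%), together 5.03% of those tested. The second test, edgeR's quasi-likelihood test on the recovered counts, called Ccl17, which is 0.0265% of the genes tested in the higher direction, and called no lower gene, which is 0%. Its unadjusted p was under 0.05 for 44 higher genes (1.17%) and 134 lower genes (3.55%). DESeq2 called 0 genes (0%), with a smallest adjusted p of 0.427 and 21 genes (0.556%) at an unadjusted p under 0.05. To give the reach of the tests, counts were simulated with the depth of these libraries and 1 spread per gene for both groups. The real shXbp1 pair differed more than the shScrmbl pair. Over 10 simulated data sets, 1000 genes in all were changed 4-fold and 1000 were changed 8-fold. Recovery at an adjusted p depends on how many genes change, so it may be lower where fewer do. In these simulations edgeR recovered 13.2% of genes changed 4-fold and 49.1% changed 8-fold, and limma 4% and 20.3%. Beside these, calls among unchanged genes averaged 2 per data set by edgeR and 0.5 by limma. The calls also depended on which shXbp1 library was kept. Without shXbp1 library 1 the median log2 difference over the 3775 genes was -0.11 by limma and -0.25 by edgeR. Without shXbp1 library 2 it was -0.30 and -0.38. In such fits the lone shXbp1 library is assumed to vary as the shScrmbl pair did. Both fits also share the same shScrmbl pair, so a gene that stands out in both has no independent support. Without shXbp1 library 1 and library 2 the limma log2 difference was 3.95 and 2.03 for Ccl17. For Apoc2 it was -1.73 and -3.93. Without shScrmbl library 1 both tests called 0 genes, with 7 higher and 12 lower at an unadjusted p under 0.05 by limma and 13 and 45 by edgeR. Without shScrmbl library 2 both called 0, with 7 and 2 by limma and 8 and 24 by edgeR. The absence of other calls is therefore not evidence that other genes were equal.

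Both shXbp1 libraries lay above both shScrmbl libraries for 372 genes (9.85%) and below both for 945 genes (25%). Of the 945, 453 were at 0 in shXbp1 library 1 and 101 were at 0 in both shXbp1 libraries. Among the 1442 genes with a mean signal of at least 100, the counts were 182 (12.6%) above and 241 (16.7%) below. The median difference over all genes tested was -0.35 in log2 by limma and -0.17 by edgeR, and -0.01 after quantile normalization. Lower values were thus the more common background under the first 2. Among the genes with a mean signal of at least 100 the median was 0.08 by edgeR and -0.08 by limma. Several lists below hold mostly genes of that signal. By edgeR 43% of all genes had a positive difference and 57% a negative one, and by limma 34.7% and 65.3%. Counts over the lists below are set beside these shares.

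Ccl17, the chemokine that attracts CCR4-bearing T helper and regulatory T cells and is made by dendritic cells and alternatively activated macrophages, rose in edgeR's test. Its signals were 69.9 and 63.7 against 303 and 1172, from 5 and 7 against 6 and 56 counts. Both shXbp1 libraries exceeded both shScrmbl libraries, and shXbp1 library 2 was the highest. The log2 difference was 3.52 by edgeR with an adjusted p of 0.0102, 2.99 ± 0.73 (standard error, SE, as for all limma differences here) by limma with an adjusted p of 0.702, and 3.56 by DESeq2 with an adjusted p of 0.427. Pooled over libraries the ratio of shXbp1 to shScrmbl signal was 13.9 (95% interval 7.41 to 28.3), an interval that covers counting error only. The edgeR call held without shXbp1 library 1 (log2 difference 4.07) and was lost without each of the other libraries. Without shXbp1 library 2 the edgeR log2 difference was 2.16 with an adjusted p of 0.448, without shScrmbl library 1 it was 3.54 with 0.9997, and without shScrmbl library 2 it was 3.36 with 0.998. It was also lost when every library was thinned to 15654 counts (4.06, adjusted p 0.984). Ccl17 is also a marker on the dendritic cell list. The other 10 measured genes of that list of 24, Xcr1 and Ccl22 among them, took 0.159% and 0.138% against 0.179% and 0.109% of the counts, ranges that overlap between the groups, and none of the 10 was at 0 in both shXbp1 libraries. Flt3 and Zbtb46 were not analysed here.

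The Ccl17 gene lies at chr8:94810453-94812036 on the plus strand in GENCODE M21 (GRCm38). The 250 bases before its RefSeq start, chr8:94810203-94810452 of GRCm38.p6, are printed because Ccl17 was the gene called, and the bases before Apoc2, the abundant gene with the smallest p among lower genes with counts in every library, are printed beside it. The Apoc2 stretch, chr7:19677942-19678082 on the minus strand, is 141 bases long and stops where the last exon of Apoc4 begins. Capitals mark matches to 2 spaced palindromes bound by STAT factors.
Ccl17: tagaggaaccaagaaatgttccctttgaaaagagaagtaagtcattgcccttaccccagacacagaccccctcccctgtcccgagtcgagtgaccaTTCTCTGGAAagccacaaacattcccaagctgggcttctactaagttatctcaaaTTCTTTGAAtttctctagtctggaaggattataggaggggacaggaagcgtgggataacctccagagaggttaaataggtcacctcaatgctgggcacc
Apoc2: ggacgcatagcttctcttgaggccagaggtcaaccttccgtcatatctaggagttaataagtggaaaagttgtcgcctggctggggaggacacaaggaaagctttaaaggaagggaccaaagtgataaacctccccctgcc
The motif TTCNNNNGAA, the spacing preferred by STAT6, starts 154 bases before the Ccl17 start and is present in 5.85% of 32851 RefSeq promoters of the same length. The motif TTCNNNGAA, the spacing of other STAT factors, starts 99 bases before it and is present in 7.02%. Neither pattern overlaps the other. On both strands, GGGNNNNNCC (the NF-kB pattern, in 45.8% of promoters), TGANTCA (AP-1, in 6.75%), TTNNGCAA (C/EBP, in 9.56%) and TATAAA (the TATA box, in 12.4%) were not found in the 250 bases before either gene, and neither STAT pattern was found before Apoc2. The letters ACGT, the core of the elements that XBP1 and related factors bind, were found once before Apoc2, starting 199 bases before its start and so beyond the printed stretch, and were not found before Ccl17. They are present in 26.9% of promoters. A match is a run of letters and not a measured binding site.

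Among the other chemokines, the monocyte attractants lay mostly higher in shXbp1 library 2. Ccl7, a CCR2 ligand, had 0 and 9.11 against 50.6 and 188, from 1 count against 10, and a pooled ratio of 26.9 (95% interval 3.82 to 1165). Ccl2, the main CCR2 ligand, had 55.9 and 18.2 against 50.6 and 377 and a pooled ratio of 8.50 (95% interval 3.27 to 26.0). Its groups overlapped, because shXbp1 library 1 read within the shScrmbl range. Ccl12, another CCR2 ligand, had 41.9 and 72.8 against 0 and 377, with the highest and the lowest value both in the shXbp1 group. Ccl22, which shares the receptor CCR4 with Ccl17, had 55.9 and 18.2 against 0 and 188 and was likewise at 0 in shXbp1 library 1. Their adjusted p-values by edgeR were 0.301 for Ccl7, 0.333 for Ccl2, 0.923 for Ccl12 and 0.923 for Ccl22, so none of these 4 passed. Ccl5, a T cell and monocyte attractant that T and NK cells also make, had 3521 and 2331 against 3691 and 4648, higher in both shXbp1 libraries. Cxcl2, a neutrophil attractant, went the other way at 657 and 1712 against 354 and 398, with a limma log2 difference of -1.48 ± 0.62. Both shXbp1 libraries read below both shScrmbl libraries for Cxcl2.

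Over the 21 measured genes of a list of 29 chemokines and their receptors, 16 had a positive edgeR difference and 5 a negative one, with a median of 0.40 in log2 against -0.17 for all genes. By limma 11 were positive and the median was 0.05 against -0.35. It was -0.03 by edgeR when libraries were thinned to 15654 counts. Both shXbp1 libraries exceeded both shScrmbl libraries for 4 of them, Ccl5, Ccl7, Ccl17 and Ccr7, and lay below for Cxcl2 and Ccr2. Over all genes the shares were 9.85% above and 25% below. The edgeR median depended on the library: it was 0.79 without shXbp1 library 1 and -0.65 without shXbp1 library 2.

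**Figure D3:**
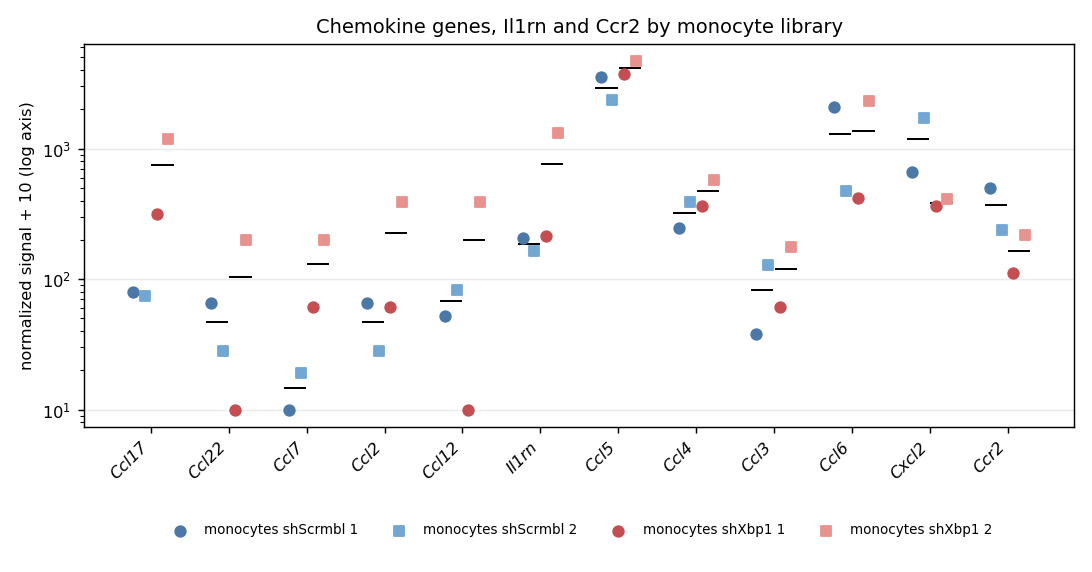
Normalized signal plus 10 on a log axis for 12 genes, with 1 symbol per monocyte library and a bar at each group's mean. Ccl17 is at 303 and 1172 in the shXbp1 libraries against 69.9 and 63.7, Ccl12 and Ccl22 are at 0 (drawn at 10) in shXbp1 library 1, and Cxcl2 is lower in both shXbp1 libraries.

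Il1rn, the antagonist of the interleukin 1 receptor, had 196 and 155 against 202 and 1298, with a limma log2 difference of 1.52 ± 0.83 and an edgeR difference of 2.20 with an adjusted p of 0.485. The groups did not overlap, but shXbp1 library 1 exceeded shScrmbl library 1 by less than 1 count's worth of signal. Il1b, the agonist, had 1719 and 2495 against 1213 and 3078, and its groups overlapped. Saa3, an acute phase protein of macrophages, had 880.4 and 865 against 50.6 and 837, lower in both shXbp1 libraries and near 0 in the first. Nfkbiz, an inducible regulator of NF-kB target genes, had 266 and 483 against 152 and 126, and Nfkbia, the inhibitor that NF-kB induces against itself, had 475 and 1011 against 607 and 482. Nfkbiz was lower in both shXbp1 libraries, while Nfkbia overlapped. Nlrp3, the inflammasome sensor, had 69.9 and 173 against 50.6 and 0, which is 24 counts against 1. Of the 22 measured genes on a list of 41 NF-kB and proinflammatory genes, 15 had a negative edgeR difference, and the median was -0.29 against -0.17 for all genes. It was -0.18 without shXbp1 library 1 and -0.99 without library 2. The groups did not overlap for 2 higher and 8 lower genes of this list, against 9.85% and 25% of all genes.

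Lipoprotein and lipid handling genes, which load, move and store the lipid that phagocytes take up from myelin, had lower values in most members. Of 17 measured genes out of 25 listed, 14 had a negative edgeR difference, and both shXbp1 libraries lay below both shScrmbl libraries for 9 and above for 0, against 25% and 9.85% of all genes. The median was -0.80 by edgeR and -0.86 by limma. It was -0.57 without shXbp1 library 1 and -1.78 without shXbp1 library 2. None of the 17 passed an adjusted p of 0.05 in either test.

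Apoc2, the activator of lipoprotein lipase, had 1397 and 2039.7 against 101 and 502, from 100 and 224 against 2 and 24 counts. Both shXbp1 libraries were below both shScrmbl libraries. The log2 difference was -2.83 ± 0.74 by limma with an adjusted p of 0.702 and -2.35 by edgeR with an adjusted p of 0.333, and the pooled ratio was 0.215 (95% interval 0.139 to 0.322). With library totals in place of TMM scaling edgeR also called Apoc2 (-2.37, adjusted p 0.0352). It did so too without shXbp1 library 1 (-1.82, adjusted p 0.00085) and without shXbp1 library 2 (-4.07, adjusted p 1.23e-08). It did not without shScrmbl library 1 (-2.64, adjusted p 0.9997), without shScrmbl library 2 (-2.14, 0.998), after thinning to 15654 counts (-2.53, 0.984) or with the replicate block (-2.65, 0.997). Its gene lies at chr7:19671579-19677941 on the minus strand, in a cluster with Apoc4 (chr7:19678083-19681479), Apoc1 (chr7:19689481-19692660) and Apoe (chr7:19696109-19699188). Apoc4, the next gene upstream, had 69.9 and 36.4 against 0 and 0, or 9 counts against 0, and Apoc1 had 27.9 and 72.8 against 0 and 41.9. Apoe, the main lipid carrier made by CNS macrophages and astrocytes, had 10411 and 19887 against 4399 and 9693, with a limma log2 difference of -1.14 ± 0.59. All 4 genes of the cluster had their lowest value in shXbp1 library 1, Apoc4 shared with library 2, and Apoe and Apoc2 were lower in both shXbp1 libraries. The astrocyte marker list, which also holds Apoe, had 7 of 26 genes measured. Their share of counts, Apoe included, was 1.07% and 2.03% against 0.645% and 0.897%, lower in both shXbp1 libraries. Most of it was Apoe itself, as the summed signal of the 7 was 11109 and 20843 against 5106 and 10636. This share therefore says little about the other astrocyte markers. Of the 7, 3 genes with Apoe among them were lower and 1 was higher without overlap. Mt1, the other abundant member, overlapped between groups at 419 and 555 against 404 and 628.

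Fabp5, a fatty acid binding protein of activated macrophages, had 936 and 1211 against 50.6 and 565, with a limma log2 difference of -2.53 ± 0.94 and an edgeR difference of -1.61. Lipa, the lysosomal lipase that frees cholesterol from esters, had 154 and 419 against 0 and 105. Pla2g7, a secreted phospholipase that degrades platelet activating factor, had 797 and 947 against 253 and 607. These 3 were lower in both shXbp1 libraries and lowest in the shallow one. Abca1, the pump that exports cholesterol to apolipoproteins, had 196 and 255 against 50.6 and 105, also without overlap. Npc2, which moves cholesterol out of the lysosome, had 1817 and 2304 against 910.0 and 2449.5, and Plin2, the coat protein of lipid droplets, had 307 and 656 against 152 and 482. For both of these the groups overlapped.

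The list of 31 genes of alternative myeloid activation shares Apoe, Fabp5 and Plin2 with the lipid list. Of 20 measured genes 14 had a negative edgeR difference, with a median of -0.67 (-0.55 and -1.74 without shXbp1 library 1 and library 2). The groups did not overlap for 9 lower and 2 higher genes, against 25% and 9.85% of all genes. Chi3l3, a secreted chitinase-like protein of monocytes, had 1229.7 and 2231 against 0 and 900.3 and is listed at 0 in shXbp1 library 1. Its log2 difference was -4.13 by limma and -1.76 by edgeR, and a near-identical copy makes its counts uncertain. Gpnmb, a glycoprotein of lipid-laden macrophages, had 741 and 1603 against 404 and 544. Tgfbi, an extracellular matrix protein induced by TGF-beta, had 1090.0 and 956 against 202 and 523. Both were lower in both shXbp1 libraries. The 2 exceptions were the lectin genes Mgl2, with 0 and 27.3 against 101 and 126, and Clec10a, with 13.97 and 36.4 against 101 and 83.7, each higher in both shXbp1 libraries on few counts. Arg1, the arginase of alternatively activated macrophages, had 894 and 309.6 against 101 and 419, and Spp1, osteopontin, had 1565 and 865 against 758 and 2910.1. Both overlapped.

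**Figure D4:**
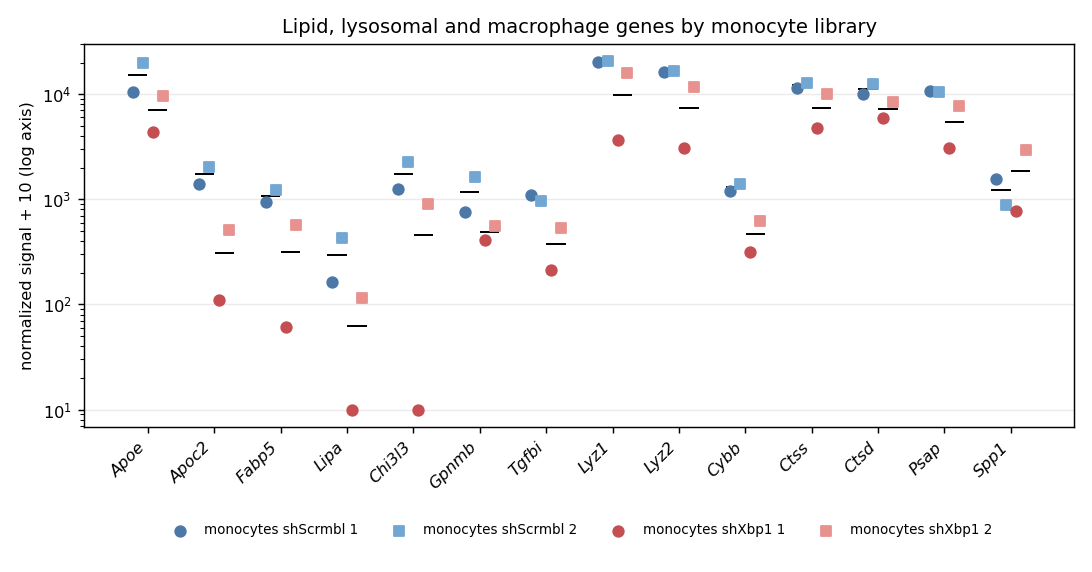
Normalized signal plus 10 on a log axis for 14 lipid, lysosomal and macrophage genes, with 1 symbol per monocyte library and a bar at each group's mean. Apoc2 is at 101 and 502 in the shXbp1 libraries against 1397 and 2040, Lipa and Chi3l3 are at 0 (drawn at 10) in shXbp1 library 1, and Spp1 overlaps between the groups.

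The lysozymes, antibacterial enzymes that are among the most abundant transcripts of monocytes, were lower in both shXbp1 libraries. Lyz1 had 20011 and 20497 against 3691 and 15912, and Lyz2 had 16098 and 16463 against 3084 and 11662. The limma log2 differences were -1.40 ± 0.68 and -1.44 ± 0.65, most of which came from shXbp1 library 1. Reads shared between these near-identical genes could have been split in counting. Fn1, fibronectin, had 615 and 509.9 against 152 and 188, with a limma log2 difference of -1.67 ± 0.58, low in both shXbp1 libraries alike. F13a1, a transglutaminase of monocytes, had 266 and 382 against 152 and 251, and Cybb, the electron-transferring core of the oxidase that phagocytes use to make superoxide, had 1202 and 1402 against 303 and 607 with a limma log2 difference of -1.57 ± 0.58. Both were without overlap. Of 2 further oxidase subunits, the membrane partner Cyba overlapped between groups at 461 and 528 against 202 and 607, and the cytosolic subunit Ncf4 was higher in both shXbp1 libraries at 182 and 118 against 202 and 356. Csf1r, the receptor for macrophage colony-stimulating factor, was higher in both shXbp1 libraries at 307 and 455 against 809 and 482, as was S100a4, a calcium-binding protein, at 238 and 127 against 253 and 482. For Ncf4 and S100a4, shXbp1 library 1 exceeded shScrmbl library 1 by less than 1 count's worth of signal. Across the 28 monocyte and macrophage genes measured, 16 had a negative edgeR difference. The groups did not overlap for 11 lower and 3 higher genes, against 25% and 9.85% of all genes. The edgeR median was -0.15 against -0.17 for all genes. For the 24 members with a mean signal of at least 100 it was also -0.15, against 0.08 for all genes of that signal. The median of the 28 ran from 0.00 without shXbp1 library 1 to -1.30 without shXbp1 library 2.

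Lysosomal genes had a negative edgeR difference for 26 of 32 measured genes, with a median of -0.44 against -0.17 for all genes, and by limma for 30 of 32 with a median of -0.60 against -0.35. The groups did not overlap for 13 lower genes and 1 higher gene, against 25% and 9.85% of all genes. Without shXbp1 library 1 the edgeR median was -0.32, and without library 2 it was -1.14. Ctss, the cathepsin that trims the invariant chain of MHC class II, had 11445 and 12812 against 4803 and 9924. Ctsd, an aspartic protease, had 9991 and 12621 against 5966 and 8458, and Psap, the precursor of the sphingolipid-activating saposins, had 10816 and 10489.7 against 3084 and 7788. These 3 abundant genes were lower in both shXbp1 libraries, with a limma log2 difference of -1.12 ± 0.58 for Psap. Ctsb, a cysteine protease, had 8035 and 8140.5 against 2225 and 8123, so that shXbp1 library 2 matched the shScrmbl pair. The higher gene was Cst3, the secreted cathepsin inhibitor cystatin C, at 1188 and 1457 against 1972 and 2156. Ftl1, the ferritin light chain that stores iron, had 45373 and 47277 against 13853 and 47442, and its processed copies in the genome make its counts uncertain. Here shXbp1 library 1 alone was low.

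Antigen presentation genes were taken by class, and the difference between the classes was not tested. Of the 15 measured MHC class I genes out of 20 listed, 14 had a positive edgeR difference, with a median of 0.49 (0.65 without shXbp1 library 1 and 0.13 without library 2), and 13 were positive by limma. The groups did not overlap for 4 higher genes and 1 lower gene, against 9.85% and 25% of all genes. Psmb10, a subunit of the immunoproteasome, had 307 and 146 against 404 and 607, while B2m, the light chain of class I molecules, had 9153 and 8441 against 4399 and 13483. Psmb10 was without overlap and B2m was not. Of 12 measured class II genes, 6 were positive and 6 negative by edgeR, with a median of -0.01. It was 0.26 without shXbp1 library 1 and -1.09 without library 2. H2-Aa and H2-Ab1 encode the 2 chains of I-A, through which helper T cells see peptide. H2-Aa had 7085 and 5800.3 against 3589.6 and 8039.5, H2-Ab1 had 3144 and 1930.4 against 1871 and 2533, and both overlapped. The H2 genes are near copies of each other, and their counts are uncertain where reads could be shared.

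Interferon-induced genes differed between the shXbp1 libraries. By edgeR 28 of 36 measured genes were positive with a median of 0.39, but by limma 18 of 36 were positive with a median of -0.03, and the edgeR median was 0.59 without shXbp1 library 1 and -0.47 without shXbp1 library 2. Gbp2, a guanylate-binding protein, had 307 and 118 against 0 and 1151, and Zbp1, a sensor of nucleic acids, had 182 and 91.1 against 50.6 and 628. The highest value was in shXbp1 library 2 and the lowest in shXbp1 library 1 for both. Irf7, the factor that amplifies type I interferon, had 55.9 and 27.3 against 50.6 and 188. Of the 36, 1 higher gene and 2 lower genes were without overlap, against 9.85% and 25% of all genes. The higher gene was Ifitm1, a membrane protein that restricts viruses, with 139.7 and 54.6 against 202 and 523 and a limma log2 difference of 1.77 ± 0.73. The lower genes were Ifit1, which binds foreign RNA, with 55.9 and 72.8 against 50.6 and 20.9, and Samhd1, which depletes nucleotides, with 279 and 173 against 101 and 167. Beside the list, Nmi, an interferon-induced partner of STAT factors, had 83.8 and 82.0 against 303 and 272, nearly equal within each pair, and a limma log2 difference of 1.68 ± 0.61. Ifi205, of the interferon-inducible p200 family, had 0 and 9.11 against 50.6 and 167 on 1 count against 9.

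Immediate early genes, which respond to stimulation before new protein is made, were lower in most members. The groups did not overlap for 9 lower genes and 1 higher gene, against 25% and 9.85% of all genes. By edgeR 16 of 21 measured genes were negative with a median of -0.57. The median was lower still without shXbp1 library 1 (-0.95) and without library 2 (-0.93), but it turned to 0.27 when every library was thinned to 15654 counts. Fos, a subunit of AP-1, had 489 and 683 against 202 and 230.3 and a limma log2 difference of -1.38 ± 0.58. Btg2, an antiproliferative early response gene, had 950.2 and 1393 against 455 and 628 and a limma log2 difference of -1.09 ± 0.55. Atf3, an early stress-induced factor, had 252 and 519 against 50.6 and 188. All 3 were lower in both shXbp1 libraries, which for Fos lay close together. Jun, the partner of Fos, had 182 and 209 against 404 and 62.8, with both the highest and the lowest value in the shXbp1 group. Zfp36, which destabilizes cytokine mRNA, and Fosl2, another AP-1 subunit, were at 0 in both shXbp1 libraries, from 12 and 14 counts in the shScrmbl pair. Against a floor of 3 counts over the group this is at least 1.49-fold lower for Zfp36 and at least 1.74-fold lower for Fosl2.

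Xbp1 itself was not targeted in these cells and was measured at 126 and 182 against 303 and 126, from 29 and 12 counts. The shXbp1 pair held the highest value and one at the level of the lowest, and the groups overlapped. The limma log2 difference was 0.35 ± 0.67. An exact two-sided permutation test gave p = 1, where the smallest p that 6 splits of 4 libraries allow is 0.333. The pooled ratio was 1.11 (95% interval 0.516 to 2.25). The 3′ reads do not separate the spliced, active form of the Xbp1 transcript from the unspliced one.

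Genes of ER folding and degradation, which XBP1 and ATF6 control, were on the higher side. Of 36 measured genes out of 43 listed, 26 had a positive edgeR difference and 25 a positive limma difference. The median was 0.39 by edgeR and 0.40 by limma. It was 0.29 without shXbp1 library 1 and 0.41 without library 2. The groups did not overlap for 12 higher and 3 lower genes, against 9.85% and 25% of all genes. Hspa5, the chief chaperone of the ER, had 755 and 1102 against 1315 and 1068, and Hsp90b1, the ER form of HSP90, had 741 and 1193 against 1011 and 754. Both overlapped. The 12 were Pdia3, Dnajb11, Creld2, Derl1, Edem1, Sec61a1, Ssr1, Ssr2, Ssr3, Ssr4, Rpn2 and Sec11c. Sec61a1, the channel subunit of the translocon, had 83.8 and 45.5 against 202 and 167. Ssr4, of the translocon-associated protein complex, had 349 and 337 against 455 and 544, and Rpn2, of the oligosaccharyltransferase, had 307 and 219 against 354 and 565. Each was higher in both shXbp1 libraries, but for Rpn2 shXbp1 library 1 exceeded shScrmbl library 1 by less than 1 count's worth of signal. Sar1b, the GTPase that starts COPII vesicles leaving the ER, had 55.9 and 100.2 against 202 and 272, also without overlap. Among 13 measured genes of stress sensors and the ATF4 and CHOP branch, 7 were positive and 6 negative by edgeR. Their median was 0.05, and it was -0.28 without shXbp1 library 1 and -1.69 without library 2. The 19 measured cytosolic heat shock genes had 12 positive differences and a median of 0.37, which was 0.22 without shXbp1 library 1 and -0.27 without library 2.

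Cytosolic ribosomal protein genes were positive by edgeR for 73 of 76 measured genes and by limma for 69, with medians of 0.39 and 0.31. The groups did not overlap for 26 higher genes and no lower gene, against 9.85% and 25% of all genes. Among all genes with a mean signal of at least 100, which 75 of the 76 had, the shares were 12.6% and 16.7%. Their share of counts was 19.0% and 18.9% against 23.2% and 28.2%, higher in both shXbp1 libraries. The median was 0.62 without shXbp1 library 1 and -0.06 without shXbp1 library 2. Rps4x, of the small subunit, had 5449.8 and 5418 against 4045 and 15828, and Rpl41, of the large subunit, had 10634 and 11373 against 8291 and 15304, so for each the highest and the lowest value were in the shXbp1 pair. Many of these genes have processed copies in the genome, and their counts are uncertain for that reason. Of the elongation factors, Eef1g had 559 and 610.1 against 1163 and 879, with a limma log2 difference of 0.78 ± 0.54, and was higher in both shXbp1 libraries.

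**Figure D5:**
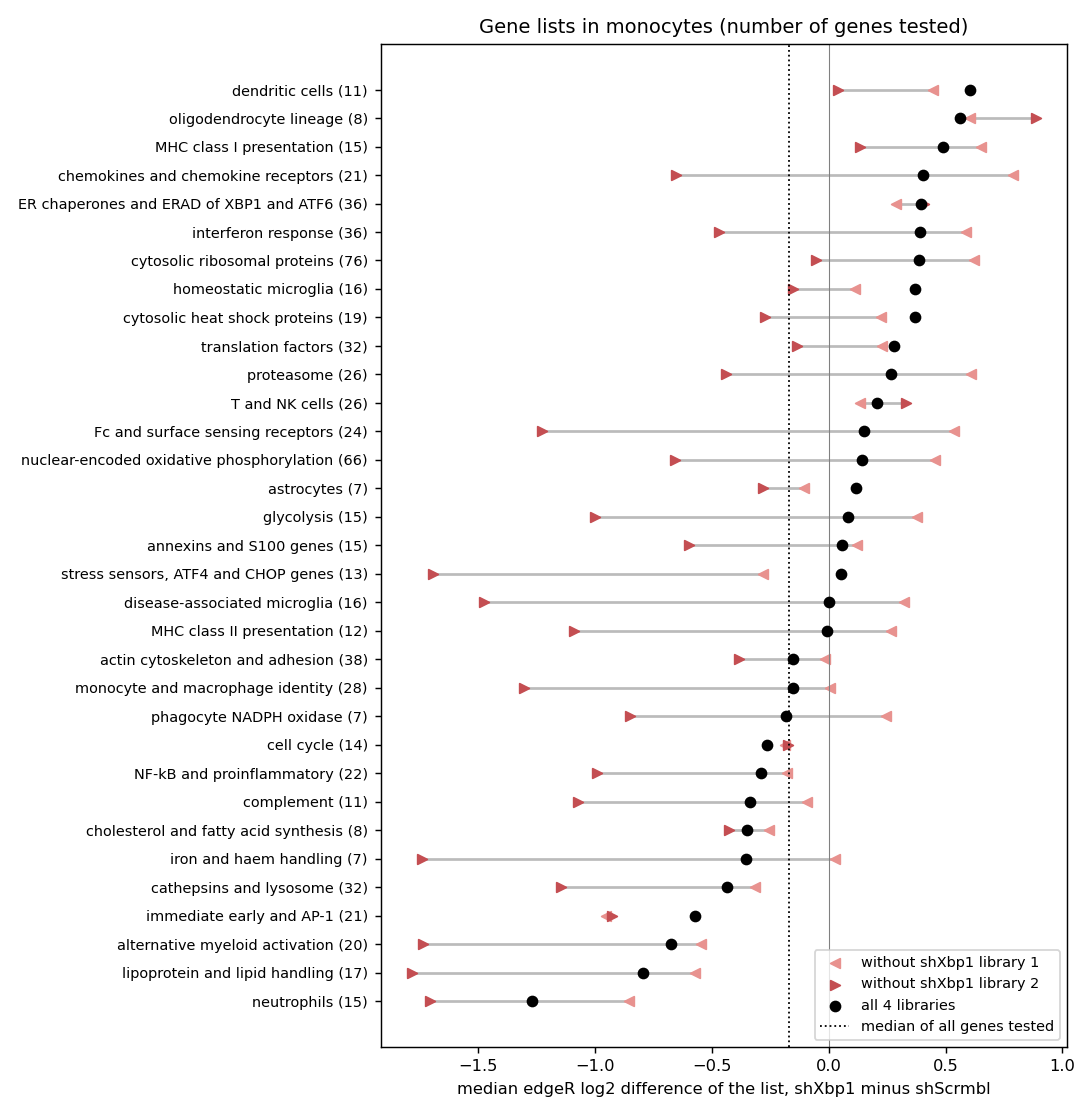
Median edgeR log2 difference (shXbp1 minus shScrmbl) of each gene list with at least 7 genes tested, from all 4 libraries (black) and without shXbp1 library 1 or 2 (triangles), with the median of all genes as a dotted line. The ER chaperone list stays between 0.29 and 0.41, the lipid list stays below 0, and the chemokine and interferon lists change sign without shXbp1 library 2.

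Nuclear-encoded oxidative phosphorylation genes were positive by edgeR for 41 of 66 with a median of 0.14, and negative by limma for 37 with a median of -0.07. The edgeR median was 0.45 without shXbp1 library 1 and -0.66 without library 2. Glycolysis genes had a median of 0.08 by edgeR over 15 genes, from 0.38 without shXbp1 library 1 to -0.999 without library 2. Proteasome genes were positive for 17 of 26 by edgeR with a median of 0.26 (0.61 and -0.44 without shXbp1 library 1 and library 2). Psmb1, a catalytic-core subunit, was without overlap at 447 and 401 against 859 and 963 and a limma log2 difference of 1.09 ± 0.54. Actin and adhesion genes had a median of -0.15 over 38 genes (-0.01 and -0.38 without shXbp1 library 1 and library 2), and Actb had 12004 and 10572 against 12943 and 11557. Cell cycle genes had a median of -0.26 over 14 genes (-0.19 and -0.17 without shXbp1 library 1 and library 2).

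Some transcripts of other blood cells did not overlap between the groups. All 4 measured red blood cell genes were higher in both shXbp1 libraries, and their summed share of counts was 0.0215% and 0.0382% against 0.109% and 0.0653%. Hbb-bs, a beta globin, had 139.7 and 182 against 404 and 398 and a limma log2 difference of 1.28 ± 0.59. Globin genes are near copies, and their counts are uncertain. On the T and NK cell list 17 of 26 genes were positive by edgeR. Without overlap 7 were higher and 2 lower, against 9.85% and 25% of all genes. Of the higher genes, Cd3d and Cd3g, subunits of the T cell receptor complex, had 559 and 473 against 910.0 and 775 and 545 and 401 against 657 and 1068. On the dendritic cell list 8 of 11 were positive, with 2 higher, Ccl17 and Ccr7, and 2 lower, Xcr1 and Naaa, without overlap. The same all-gene shares of 9.85% and 25% apply. Xcr1, the receptor of cross-presenting dendritic cells, had 880.4 and 738 against 506 and 251. Slpi, a protease inhibitor of neutrophils and macrophages, had 657 and 792 against 3337 and 1026 and a limma log2 difference of 1.35 ± 0.64, highest in shXbp1 library 1. Slpi is on the list of 34 neutrophil genes, of which 15 were measured, and the share of counts over the 15 overlapped between groups at 0.245% and 0.235% against 0.492% and 0.231%. Without Slpi and Wfdc17, which macrophages also express, the share of the remaining 13 was 0.128% and 0.114% against 0.0511% and 0.0671%. Of the 15, 6 lower genes and 1 higher gene were without overlap, against 25% and 9.85% of all genes. S100a8, a subunit of the neutrophil protein calprotectin, had 279 and 164 against 0 and 62.8, and Csf3r, the receptor of the neutrophil growth factor G-CSF, had 126 and 191 against 50.6 and 0. Mmp8, the neutrophil collagenase, was at 0 in both shXbp1 libraries from 18 counts. The nuclear RNA Malat1 had 49747 and 42469 against 38323 and 20455, with a limma log2 difference of -0.71 ± 0.52, and the abundant transcript Pwwp2a had 14994 and 11018 against 9353 and 5025. Both were lower in both shXbp1 libraries, with shXbp1 library 2 the lowest.

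The lowest unadjusted p-values among lower genes belonged mostly to genes of modest signal that were at or near 0 counts in both shXbp1 libraries. Mmp14, a membrane metalloprotease of invading cells, had 182 and 246 against 0 and 0, which is 40 counts against 0. Against a floor of 3 counts over the group it was at least 4.97-fold lower, with an edgeR adjusted p of 0.214. Cr1l, a complement regulator, and Dnmt3a, a DNA methyltransferase, had 23 and 22 counts in the shScrmbl pair and 0 in the shXbp1 pair, at least 2.85-fold and 2.73-fold lower. Ddx6, an RNA helicase of processing bodies, had 126 and 392 against 50.6 and 0, or 52 counts against 1, and a pooled ratio of 0.0516 (95% interval 0.00128 to 0.301). Tgs1, which caps small nuclear RNAs, had 196 and 273 against 50.6 and 0, and Leprot, which regulates surface receptors, had 238 and 209 against 0 and 20.9. None of these 6 passed an adjusted p of 0.05 by edgeR. On the higher side Cdk2ap2, a regulator of the cell cycle, had 97.8 and 45.5 against 253 and 293 and a limma log2 difference of 1.87 ± 0.65. Its groups did not overlap, on 12 counts against 19.

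The same hairpins were compared in microglia and astrocytes, whose tables were normalized separately. Values are therefore set side by side, and the difference between cell types was not tested. Xbp1 had 49.8 ± 30.3 (SD, n = 4) against 49.5 ± 22.3 (SD, n = 4) in astrocytes, the targeted cells, with overlap. A lower level of the target was therefore not seen there, but few counts limit this comparison. Astrocyte shScrmbl libraries 1, 3 and 4 read 20.06, 79.9 and 27.6 for Xbp1. These are at or under the signal of 3 counts in each, which was 60.2, 79.9 and 82.7. A lowering of Xbp1 could be missed at that depth. In microglia Xbp1 had 51.3 ± 41.9 (SD, n = 4) against 48.3 ± 42.0 (SD, n = 3), also with overlap. Apoc2 had a mean signal of 776 ± 722 (SD, n = 4) against 289.6 ± 288 (SD, n = 3) in microglia, with overlap. In astrocytes it had 112 ± 49.8 (SD, n = 4) against 14.7 ± 6.00 (SD, n = 4), where all 4 shXbp1 libraries lay below all 4 shScrmbl libraries. That gap also rests on few counts. All 4 astrocyte shXbp1 values (17.1, 14.4, 20.8 and 6.64) were at or under the signal of 3 counts in their library. Astrocyte shScrmbl libraries 3 and 4 (79.9 and 82.7) were at the signal of 3 counts. Ccl17 had 132 ± 78.03 (SD, n = 4) against 57.3 ± 50.6 (SD, n = 3) in microglia, with overlap, where the monocyte libraries had higher values with the Xbp1 hairpin. Ccl2 had 154 ± 87.3 (SD, n = 4) against 7.98 ± 13.8 (SD, n = 3) in microglia, and every shXbp1 library lay below every shScrmbl library there. That gap was narrow: the lowest shScrmbl value (40) and the highest shXbp1 value (23.9) were each the signal of 1 count. Microglia shXbp1 libraries 1 and 2 read 0, where 1 count was worth 76.0 and 69.0. In monocytes the Ccl2 groups overlapped. Mmp14 had 78.1 ± 74.2 (SD, n = 4) against 153 ± 112 (SD, n = 3) in microglia, with overlap.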

How the data were processed

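The signal values were deposited by the authors as 1 table per cell type. Per the labels' protocols, RNA came from flow-sorted cells and libraries were made by 3′ digital gene expression. Tools named in the submitters' processing notes are BWA 0.7.10 and limma 3.34.1, with the mm10 build. The counter, the scaling, the annotation and any filter on low genes are not given in the sources used here. Whether counts are reads or molecular tags is likewise not given. All 13747 monocyte signals above 0 were whole multiples, within 0.01, of the smallest signal of their library (100%), and the multiple was taken as the count.

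The main test was limma 3.58.1 with trend and robust variance on log2(signal + 10) over 3775 genes with signal in at least 2 libraries, and fold changes on this scale understate those of low genes. The second was edgeR 4.0.16's quasi-likelihood test on the recovered counts with TMM scaling, and DESeq2 1.42.0 was an alternative. P-values were adjusted by Benjamini-Hochberg over all genes, and both main tests were tested on 10 simulated data sets. Pooled ratios carry exact binomial 95% intervals for counting error. Genes were named by rule: Xbp1, genes past a threshold, the 12 per direction with the smallest edgeR p, the 10 per direction with the largest limma difference among those with 30 counts and no overlap, the 20 with the highest signal, and up to 6 per list by signal. Other genes named were chosen after their values were seen. The comparison, the gene lists and the rule were chosen with earlier results of these data known. Mitochondrially encoded genes and mast cell markers were not analysed here. Of 3776 names, 3747 matched GENCODE M21.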

Additional observations from a re-analysis of the deposited data

How the results depend on the processing

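Depth limits these results: shXbp1 library 1 holds 15654 counts, in which 3 counts are a signal of 152, and simulated 4-fold changes were mostly missed. The limma count of 0 genes was also 0 with pseudocount 50, a mean signal of at least 100, no filter, quantile normalization, thinning and DESeq2. It was 1 with edgeR on the recovered counts, 101 with pseudocount 1 (99 of them at 0 in both shXbp1 libraries), and 1 with the replicate block, which called Chi3l3. Leaving out 1 library gave from 0 to 1064 genes: 0 without either shScrmbl library, 285 without shXbp1 library 1 and 1064 without shXbp1 library 2, where the lone shXbp1 library is assumed to vary like the shScrmbl pair.

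By edgeR the count of 1 gene was 1 with DESeq2 size factors and with at least 10 counts, 2 with library totals (Ccl17 and Apoc2), and 0 with thinning or the replicate block. Leaving out 1 library gave from 0 to 61 genes, 29 without shXbp1 library 2 and 61 without shXbp1 library 1. Same-numbered libraries correlated at -0.118 in their deviations from the group means. With 2 libraries a group the crossed numbers give 0.118 by construction, so this value cannot show whether libraries were paired. With crossed numbers, a replicate block chosen after seeing the data called 2 genes by limma and 0 by edgeR. The difference of Xbp1 ranged from -0.25 to 0.96 by limma and from -0.37 to 0.94 by edgeR when 1 library was left out, and was negative without shXbp1 library 1. The list medians changed sign in 38 of 152 edgeR fits and 29 of 152 limma fits that left out 1 library, and in 19 of 190 and 39 of 342 other fits.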
